A study of Mus musculus with 9 samples.

Results

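Myeloid cells labelled SOCS3 KO were compared here with the wild-type libraries named Gr_1 across the whole transcriptome. The comparison takes 6 of the 9 libraries of the series, 3 named KO (A, B and C) and 3 named Gr_1 (A, B and C), and every gene at 1 FPKM or more in at least 3 of these 6 libraries. An FPKM value counts the fragments of a gene relative to its exon length and to a scaling of the library, so it is a level per length. Of 54532 genes in the table, 11885 met this rule. All animals were C57BL/6 mice of 6 to 8 weeks, and both groups were labelled as myeloid cells taken from white cells. The KO genotype is given as SOCS3 KO and the Gr_1 genotype as wild type; a Cre driver, a promoter, a treatment, the tissue of origin and the meaning of the name Gr_1 are not given in the labels. The other group, 3 wild-type libraries, named fl, entered the fit to add to the estimate of the spread, and its levels are quoted only where they bear on a result. Nothing in the labels tells whether a group's libraries stem from different animals. KO A and KO B differed in X- and Y-linked RNA as a male and a female sample do (values below). These libraries were therefore not of the same animal. The p-values reflect only how the libraries of each group spread, which elsewhere may be technical.

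Socs3 encodes a suppressor of cytokine signalling. It binds the gp130, G-CSF and leptin receptors and their JAK kinases, stops the phosphorylation of STAT3, and is itself induced by STAT3, which closes a feedback loop. In the marrow, granulocytes pass through ordered waves of granule synthesis. Promyelocytes make the primary (azurophil) granule enzymes, myelocytes and metamyelocytes make the secondary and tertiary granule proteins, and band and segmented cells make the receptors and cytosolic proteins of the mature neutrophil. Cells of this lineage that suppress T cells are called myeloid-derived suppressor cells, and the series title names an early-stage form of them together with SOCS3 deficiency, autophagy, miR-155, C/EBPβ and Wnt.

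The 6 libraries were alike in depth but not in how the RNA was spread over genes. Recovered totals lay between 18.6 and 21.5 M fragments (M for mega), and each library had from 11499 to 11700 genes at 1 FPKM or above. In each library the top 10 genes by level together took 38.9 ± 0.473% of all FPKM in Gr_1 and 27.9 ± 2.30% in KO (mean ± SD, n = 3 each). The KO libraries differed more among themselves than the Gr_1 libraries did, with a mean chi-square per gene of 52.8 between KO A and KO B, 15.1 between KO A and KO C and 16.7 between KO B and KO C, and of 4.72 to 10.8 between pairs of Gr_1. KO C lay between the other KO libraries. It was the middle of the 3 in 61.8% of all genes tested, in 86.8% of the 280 genes that rose at least 2-fold and in 83.8% of the 849 that fell at least 2-fold. A weighted sum of 0.53 of KO A and 0.47 of KO B matched KO C with a median chi-square per gene of 0.807, where sampling alone gives 0.455 and the same fit gave 1.13 to 4.82 in the other 8 libraries. Xist, the transcript that coats the silenced X, measured 0.0028, 58.5 and 26.3 FPKM in KO A, B and C. It was at most 0.0104 FPKM in Gr_1 and fl. The summed level of 4 Y-linked genes was 26.5, 0 and 14.2 FPKM in KO A, B and C. That sum was 30.7 to 39.3 FPKM in Gr_1 and 16.6 to 27.3 FPKM in fl. By these genes KO A, Gr_1 and fl read as male and KO B as female, while KO C held RNA of both kinds. Sex thus differed between the groups and along the order of the KO libraries, and its part in the results was not tested. What the place of KO C between KO A and KO B rests on was not tested. Xist was not among the genes tested. Counts without KO C stand beside the results that lead each list, and where none is given the count moved by no more than 1.5 times without it.

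**Figure D1:**
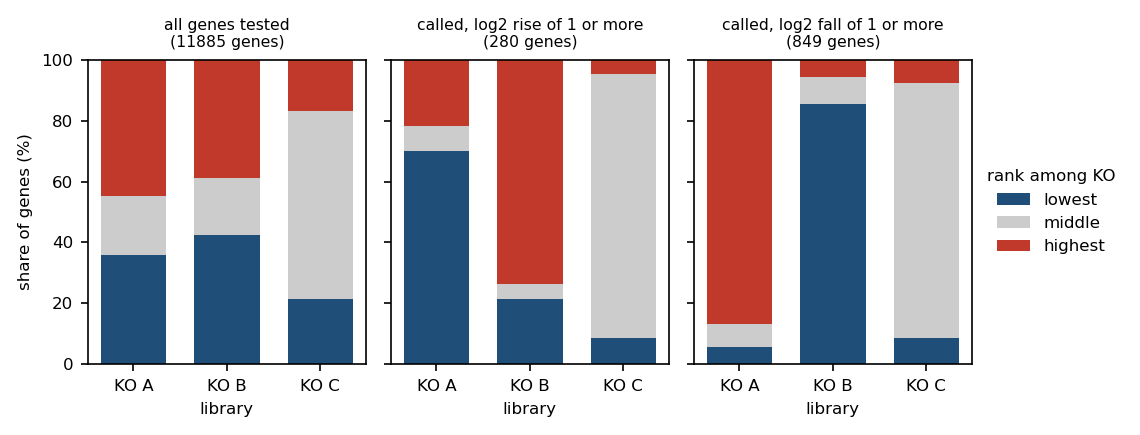
Share of genes (%) in which each KO library (x axis) was the lowest, the middle or the highest of the 3 KO libraries, for all 11885 genes tested, the 280 called genes with a log2 rise of 1 or more and the 849 called genes with a log2 fall of 1 or more. KO C takes the middle place in 61.8%, 86.8% and 83.8% of these genes, KO B is highest in 73.6% of the rises and lowest in 85.6% of the falls.

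The gene named by the genotype came first as a check of the labels. Socs3 (ENSMUSG00000053113, chromosome 11, 117966079 to 117970047 on GRCm38, minus strand) measured 9.23, 6.76 and 8.37 FPKM in KO A, B and C and 37.0, 36.6 and 33.0 FPKM in Gr_1 A, B and C. No KO library reached the Gr_1 range, and the fitted log2 change was -2.01 ± 0.107 (SE; adjusted p = 1.53e-05). The mean was 8.12 ± 1.25 FPKM in KO and 35.5 ± 2.22 FPKM in Gr_1 (SD, n = 3 each), a ratio of 0.228. An exact permutation test (two-sided, 3 libraries against 3) gave p = 0.1, the smallest it can give. Socs3 was not absent from the KO libraries, which held 1481 of its fragments against 5163 in Gr_1. The wild-type fl libraries held less still, at 3.87, 4.02 and 3.40 FPKM, so the level of Socs3 does not by itself tell the labelled genotypes apart. A level summed over the whole gene does not say whether particular exons are missing.

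Across all genes, the limma fit called 6766 of 11885 genes (56.9%) at an adjusted p under 0.05, 3206 of them higher in KO (27.0% of all tested) and 3560 lower (30.0%). A change of at least 2-fold, a log2 change of 1 or more beside the call, was reached by 280 genes that rose (2.36%) and 849 that fell (7.14%). The 3 KO libraries lay wholly above or wholly below the 3 Gr_1 libraries in 8221 genes (69.2%). These shares are the background for every list count given here, since most genes differed between the groups to some degree. Most named genes were picked for large changes, many with ranges apart as a condition. Ranges apart in single named genes are therefore not a further result. Without KO C the fit called 5649 genes, 2579 higher and 3070 lower, with 279 and 855 of at least 2-fold. With KO A as the only KO library it called 3340, where the smaller number of libraries by itself lowers the count. The balance between the directions rests on the scaling. The share of called genes that were higher was 47.4% with the deposited scaling, 55.2% after quantile normalization and 64.6% after rescaling without the 10 most abundant genes, which moved the median change of all genes from -0.001 to 0.154. Changes of less than about this shift are therefore relative to the deposited scaling. The rises of at least 2-fold were on shorter genes than the average, with a median exon length of 2317.5 bases against 3749 for all genes tested, and the falls had a median of 2905 bases. Of the falls, 72.7% were protein coding, against 82.9% of the rises and 83.6% of all genes tested.

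**Figure D2:**
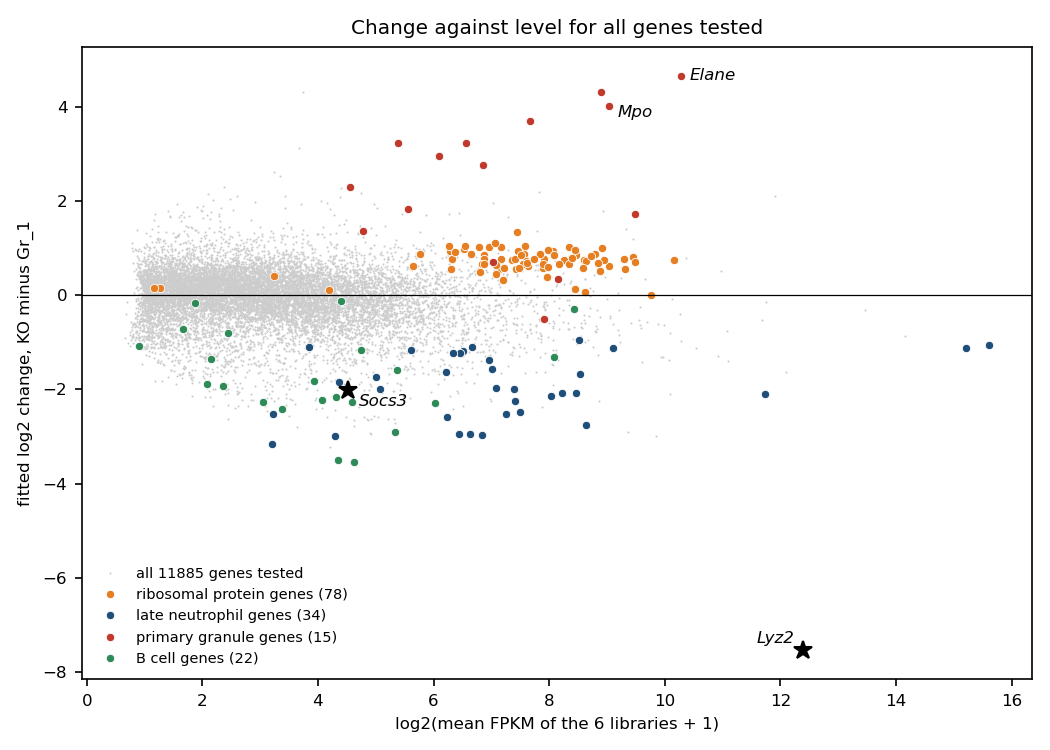
Fitted log2 change (KO minus Gr_1, y axis) against log2 of the mean FPKM of the 6 libraries plus 1 (x axis), 1 point per gene tested, with 4 gene lists coloured and Socs3 and Lyz2 starred. Primary granule genes reach 4.66 (Elane), ribosomal protein genes form a band around 0.74, late neutrophil and B cell genes lie below 0, and Lyz2 stands alone at -7.54.

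The genes with the largest rises were led by serine proteases of the primary granule. Elane (neutrophil elastase), Prtn3 (proteinase 3) and Ctsg (cathepsin G) are shown by bases upstream of their RefSeq starts, because they rose together. Mmp8, neutrophil collagenase of the secondary granule, is shown as a gene that fell. The stretches come from the 250 bases before the start in the RefSeq promoter table of GRCm38.p6. Each is cut at the first base that GENCODE annotates as exon. This leaves 185 bases for Elane and 197 for Prtn3, which end short of the RefSeq start, and 250 for Ctsg and Mmp8. Shares given below are over the full 250 bases. Capitals mark GAGGAA (the core bound by PU.1), TTGCNNAA (C/EBP) and TAACNG (Myb) on either strand.
Elane, chr10:79886062-79886246, plus strand: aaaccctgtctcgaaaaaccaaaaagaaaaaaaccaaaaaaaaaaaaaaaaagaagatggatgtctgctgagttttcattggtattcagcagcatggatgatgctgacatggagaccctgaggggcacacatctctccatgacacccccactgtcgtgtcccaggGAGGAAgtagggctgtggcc
Prtn3, chr10:79879417-79879613, plus strand: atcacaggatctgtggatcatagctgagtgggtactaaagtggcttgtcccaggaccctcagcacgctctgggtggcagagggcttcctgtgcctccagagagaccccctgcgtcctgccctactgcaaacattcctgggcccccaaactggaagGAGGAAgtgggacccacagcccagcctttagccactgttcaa
Ctsg, chr14:56102575-56102824, minus strand: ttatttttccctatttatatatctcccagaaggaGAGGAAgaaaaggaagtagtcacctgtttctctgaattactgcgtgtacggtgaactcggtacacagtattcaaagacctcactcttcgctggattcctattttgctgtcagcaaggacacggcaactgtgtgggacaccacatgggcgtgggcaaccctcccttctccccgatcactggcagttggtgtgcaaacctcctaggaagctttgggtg
Mmp8, chr9:7558179-7558428, plus strand: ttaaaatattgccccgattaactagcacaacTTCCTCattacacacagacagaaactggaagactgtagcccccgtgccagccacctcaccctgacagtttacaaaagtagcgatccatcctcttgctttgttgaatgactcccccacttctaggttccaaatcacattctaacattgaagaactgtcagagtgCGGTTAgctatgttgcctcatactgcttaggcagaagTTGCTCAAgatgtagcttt
The 3 protease stretches each hold 1 match to GAGGAA and none to TTGCNNAA or TAACNG, while the Mmp8 stretch holds 1 match to each of the 3. Other genes that fell did not share this: the stretch of Stfa2l1 holds 2 matches to GAGGAA and none to the other motifs, and that of Fpr1 holds 2 matches to TAACNG and none to the others. Over the 250 bases before the start of all 27025 promoters of the table, GAGGAA was present in 25.9%, TTGCNNAA in 10.8% and TAACNG in 22.3%. Among primary granule genes with an entry, 6 of 13 held GAGGAA, 2 held TTGCNNAA and 3 held TAACNG. Among late neutrophil genes with an entry, 16 of 29 held GAGGAA, 8 held TTGCNNAA and 4 held TAACNG. A match is a run of letters, and binding was not measured in this series.

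Primary granule genes rose almost as a whole. Of 15 tested, 14 were called higher and 1 lower, and 12 of the rises were at least 2-fold, with a median log2 change of 2.76 against -0.001 over all genes tested. The counts were the same without KO C. Elane (chromosome 10, 79886247 to 79888215, plus strand) measured 1624, 3114 and 2422 FPKM in KO A, B and C and 65.8, 120.1 and 92.2 FPKM in Gr_1 A, B and C. Every KO library was far above every Gr_1 library, and the log2 change was 4.66 ± 0.286 (SE; adjusted p = 1.77e-05). Prtn3 measured 599.5, 1184 and 940.2 FPKM in KO A, B and C and 31.6, 52.7 and 47.9 FPKM in Gr_1 A, B and C. Mpo, the myeloperoxidase that makes hypochlorous acid, measured 556, 1429 and 982 FPKM in KO A, B and C and 42.1, 66.1 and 61.4 FPKM in Gr_1 A, B and C. In all 3 genes KO B was the highest and KO A the lowest of the KO libraries, and no KO library came near the Gr_1 range. Ctsg measured 175, 582 and 387 FPKM in KO A, B and C and 19.5, 27.7 and 30.1 FPKM in Gr_1 A, B and C, a log2 change of 3.70 ± 0.387 (adjusted p = 9.88e-05). Cst7, the cystatin F that controls the activation of granule proteases, rose by 3.23 ± 0.277 (adjusted p = 4.53e-05). Ms4a3, a marker of granulocyte-monocyte progenitors, measured 148, 262 and 197 FPKM in KO A, B and C and 27.7, 28.3 and 28.7 FPKM in Gr_1 A, B and C. Prss57, neutrophil serine protease 4, rose by 2.31 ± 0.183 (adjusted p = 3.6e-05), and the glutathione transferase Gstm1 by 2.96 ± 0.179 (adjusted p = 1.77e-05). The member that fell was Hk3, a hexokinase, at -0.50 ± 0.0985 (adjusted p = 0.00248). The fl libraries held Elane at 1919.8, 2316 and 2969 FPKM, which overlaps the KO range. In bulk RNA, more cells of a type and more RNA per cell cannot be told apart, and this holds for every list here.

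Secondary and tertiary granule genes fell or stayed uncalled. Of 24 tested, 21 were called lower and none higher, 14 of them at least 2-fold, with a median log2 change of -1.22, and the counts were the same without KO C. Quantile normalization called 1 member higher and left 8 of at least 2-fold. Mmp9, gelatinase B of the tertiary granule, measured 296, 132 and 216 FPKM in KO A, B and C and 1660.4, 1729.8 and 1472 FPKM in Gr_1 A, B and C. Mmp8 measured 233, 97.6 and 159 FPKM in KO A, B and C and 1145, 1198 and 1126 FPKM in Gr_1 A, B and C. Every Gr_1 library was above every KO library in both genes, and KO A was the highest KO library. The adjusted p was 4.19e-05 for Mmp9 and 5.48e-05 for Mmp8. Ceacam10, a carcinoembryonic antigen family member, fell by 2.71 on the log2 scale (adjusted p = 3.63e-05).

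Lyz2, which encodes lysozyme M and belongs to the same list, had the largest change of all genes tested. Lyz2 (chromosome 10, 117277331 to 117282321, minus strand) measured 53.2, 59.8 and 56.0 FPKM in KO A, B and C and 10694, 10808 and 10486 FPKM in Gr_1 A, B and C. The 3 KO libraries lay within 53.2 to 59.8 FPKM, the log2 change was -7.54 ± 0.0987 (adjusted p = 1.09e-09), and the mean in Gr_1 was 189 times that in KO. The fl libraries were on the Gr_1 side, at 8670, 8827 and 9998 FPKM. Lyz1, the lysozyme gene beside Lyz2 (117287797 to 117292868, same strand), moved the other way, with 50.2, 17.2 and 36.0 FPKM in KO A, B and C and 6.08, 5.19 and 5.88 FPKM in Gr_1 A, B and C. Lyz1 rose by 2.28 ± 0.309 (adjusted p = 0.000347) and KO A, not KO B, was its highest library. Lyz1 and Lyz2 have closely alike sequences, and the counting could divide reads between them, so the small values of either are uncertain. Lyz2 is also the locus of a widely used myeloid Cre allele; the labels name no Cre.

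**Figure D3:**
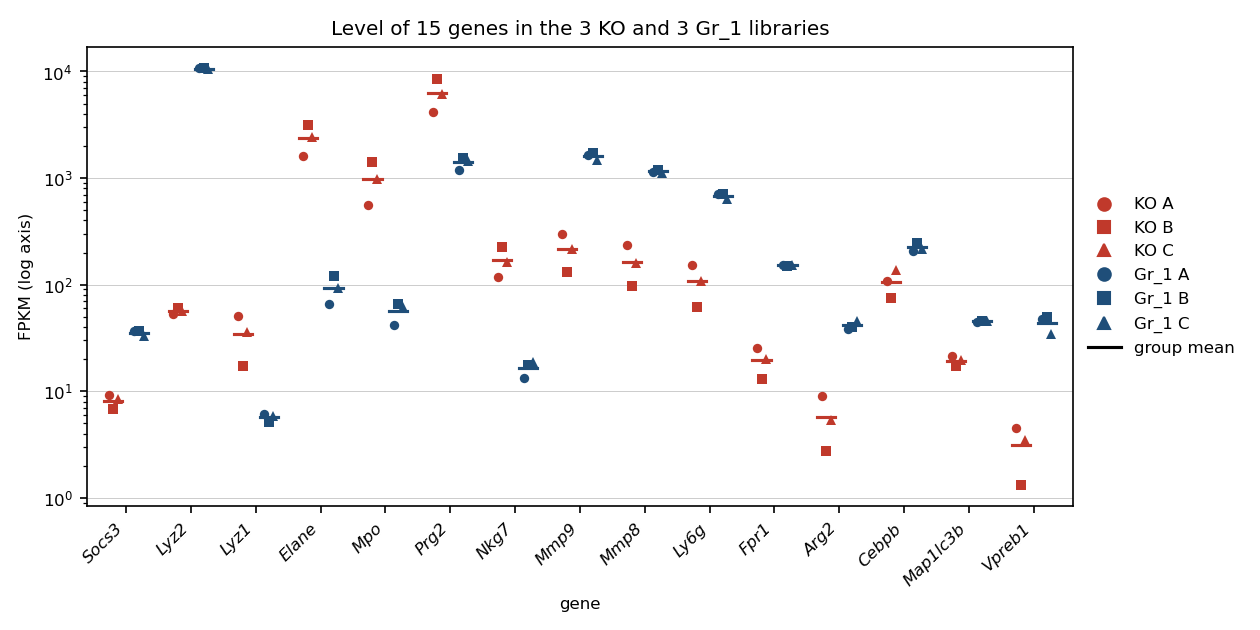
FPKM (log axis) of 15 named genes in each KO library (red) and each Gr_1 library (blue), with circles, squares and triangles for A, B and C and a line at the group mean. The groups do not overlap for any of the 15, but ranges apart were a condition for naming many of them. Of all genes tested, 69.2% had ranges apart. Lyz2 is lower and Lyz1 higher in KO, and the red symbols spread more than the blue ones for most genes.

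Late neutrophil genes fell without exception among those tested. All 34 were called lower, 33 of them at least 2-fold, with a median log2 change of -1.98, and both counts were the same without KO C. After quantile normalization 32 were called lower, 25 at least 2-fold, and after rescaling without the 10 most abundant genes 34, 27 at least 2-fold. KO A was the highest KO library in 33 of the 34 and KO B the lowest in 33. Ly6g, the antigen used to gate neutrophils and one target of the Gr-1 antibody, measured 152, 62.0 and 108 FPKM in KO A, B and C and 706, 715 and 633 FPKM in Gr_1 A, B and C. The log2 change was -2.75 ± 0.272 (adjusted p = 7.62e-05), while the fl libraries were lower still, at 11.4, 10.4 and 8.21 FPKM. The stefin A genes encode inhibitors of cysteine proteases. Stfa2l1 measured 37.1, 15.7 and 26.0 FPKM in KO A, B and C and 202, 220.4 and 179 FPKM in Gr_1 A, B and C. Stfa2 measured 1.07, 0.391 and 0.976 FPKM in KO A, B and C and 18.4, 18.5 and 9.81 FPKM in Gr_1 A, B and C, with 24 fragments in all 3 KO libraries against 371 in Gr_1. Stfa3 fell by 2.99 on the log2 scale (adjusted p = 3.5e-05). The stefin A genes are near copies of each other, so how reads divide among them is uncertain. Asprv1, an aspartic protease, measured 37.6, 10.2 and 24.4 FPKM in KO A, B and C and 177, 198 and 141 FPKM in Gr_1 A, B and C. S100a8 and S100a9 encode the calprotectin subunits and were the most abundant genes in both groups. S100a8 measured 29135, 19833 and 23327 FPKM in KO A, B and C and 50488, 52081 and 51599 FPKM in Gr_1 A, B and C. S100a9 measured 38855, 27438 and 31781 FPKM in KO A, B and C and 66362, 67927 and 66785 FPKM in Gr_1 A, B and C. Their log2 changes were -1.11 ± 0.206 (adjusted p = 0.0018) and -1.05 ± 0.217 (adjusted p = 0.00318). As the most abundant genes both are set to the same value in every library by quantile normalization, which gave a change of 0. With no filter on low values they were not called (adjusted p = 0.697 and 0.789).

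S100 genes beside S100a8 and S100a9 did not share one direction: of 8 tested in the family, 3 were called higher and 4 lower. S100a6 fell by 2.24 on the log2 scale (adjusted p = 2.91e-05) and S100a11 by 1.29 (adjusted p = 9.34e-05). S100a1 measured 57.9, 78.5 and 63.3 FPKM in KO A, B and C and 19.0, 19.0 and 19.8 FPKM in Gr_1 A, B and C and rose by 1.73 ± 0.124 (adjusted p = 2.98e-05), and S100a10, the annexin A2 partner, rose by 0.79 ± 0.139 (adjusted p = 0.00134). With quantile normalization 2 members were called lower.

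Receptors that steer leukocytes to a target were called lower in 13 of 18 and higher in 2, or in 4 with no filter on low values. Of 9 receptors for formyl peptides, complement and lipids, 8 were called lower and none higher, with a median log2 change of -1.33, and of 9 chemokine receptors 5 were lower and 2 higher. Fpr1, the formyl peptide receptor, measured 25.5, 13.1 and 20.1 FPKM in KO A, B and C and 153, 151 and 154 FPKM in Gr_1 A, B and C. Fpr2 fell by 2.48 on the log2 scale (adjusted p = 6.67e-05). Cxcr2, the receptor of the CXC chemokines that release neutrophils from marrow, measured 63.6, 30.3 and 43.6 FPKM in KO A, B and C and 265, 257 and 247 FPKM in Gr_1 A, B and C. The KO and Gr_1 ranges of these genes were apart. The receptors called higher were Ccr2 and Cx3cr1, both of monocytes. Ccr2 measured 45.1, 26.9 and 36.5 FPKM in KO A, B and C and 14.2, 10.5 and 16.4 FPKM in Gr_1 A, B and C and rose by 1.33 ± 0.281 (adjusted p = 0.00354). Cx3cr1 rose by 1.13 ± 0.167 (adjusted p = 0.000542). Gpr27, an orphan receptor on none of the lists, was among the largest falls, with 3.20, 1.62 and 3.06 FPKM in KO A, B and C and 31.1, 37.8 and 28.1 FPKM in Gr_1 A, B and C.

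Adhesion genes were mixed, with 8 of 16 called lower and 6 higher. Jaml, a junctional adhesion molecule of leukocytes, fell by 2.57 on the log2 scale (adjusted p = 4.56e-05) and the selectin ligand PSGL-1 (Selplg) by 1.09 (adjusted p = 0.000117). Vcam1 rose by 1.29 ± 0.27 (adjusted p = 0.00335) and the fibronectin receptor chain Itga5 by 1.04 ± 0.115 (adjusted p = 0.000126). Itgam, the CD11b chain used to gate myeloid cells, measured 79.4, 55.1 and 66.0 FPKM in KO A, B and C and 137, 136 and 135 FPKM in Gr_1 A, B and C and fell by 1.03 on the log2 scale (adjusted p = 0.000123).

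Most monocyte genes tested were called higher in KO. Of 27 tested, 19 were called higher and 4 lower, 13 of the rises were at least 2-fold, and the median log2 change was 0.98. The counts were the same without KO C. F10, coagulation factor X, measured 29.3, 37.7 and 31.7 FPKM in KO A, B and C and 6.08, 6.39 and 8.35 FPKM in Gr_1 A, B and C. F13a1, the transglutaminase that links fibrin, measured 52.9, 47.1 and 49.6 FPKM in KO A, B and C and 13.7, 10.2 and 15.7 FPKM in Gr_1 A, B and C. Fn1, fibronectin, measured 89.2, 88.2 and 87.5 FPKM in KO A, B and C and 24.2, 22.8 and 33.0 FPKM in Gr_1 A, B and C. The 3 KO libraries of Fn1 lay within 87.5 to 89.2 FPKM, and all 3 genes had ranges apart from Gr_1. Their log2 changes were 2.10 ± 0.133, 1.86 ± 0.176 and 1.71 ± 0.121, with adjusted p of 2.03e-05, 6.18e-05 and 2.91e-05. Ly6c2, the other target of the Gr-1 antibody and a marker of inflammatory monocytes, measured 424, 461 and 435 FPKM in KO A, B and C and 367, 334 and 336 FPKM in Gr_1 A, B and C, a rise of 0.35 ± 0.0733 (adjusted p = 0.00346). The summed level of the 28 monocyte genes in the table overlapped between the groups, at 1458 to 1647 FPKM in KO and 1255 to 1573 FPKM in Gr_1. Members that fell were Thbs1, thrombospondin 1, by 1.47 on the log2 scale (adjusted p = 0.000468), the endotoxin co-receptor Cd14 by 0.80 (adjusted p = 0.00688) and Emb, embigin, by 0.79 (adjusted p = 0.000312).

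Macrophage genes went both ways, with 10 of 20 called lower and 5 higher. The 3 chains of complement C1q fell together. C1qa measured 6.29, 4.25 and 5.57 FPKM in KO A, B and C and 25.7, 23.7 and 23.8 FPKM in Gr_1 A, B and C. C1qc fell by 1.81 on the log2 scale (adjusted p = 5.92e-05) and C1qb by 1.74 (adjusted p = 3.04e-05). Adgre1, which encodes F4/80, measured 46.0, 25.9 and 34.8 FPKM in KO A, B and C and 23.3, 22.0 and 22.7 FPKM in Gr_1 A, B and C and rose by 0.59 ± 0.168 (adjusted p = 0.0151). The scavenger receptor Msr1 rose by 0.98 ± 0.199 (adjusted p = 0.00293). The summed level of all 26 list members in the table was 370.6 to 433.5 FPKM in KO and 514.2 to 542.0 FPKM in Gr_1.

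Genes of the MHC class II chains rose, and those of the loading machinery were divided. All 4 chain genes and 5 of 8 loading genes were called higher, 1 loading gene was lower, and none of the 4 regulators was called. H2-Aa measured 49.7, 59.7 and 51.7 FPKM in KO A, B and C and 24.0, 20.0 and 31.3 FPKM in Gr_1 A, B and C. H2-Eb1 rose by 1.06 ± 0.133 (adjusted p = 0.000239) and H2-DMa, which helps peptides exchange, by 1.07 ± 0.098 (adjusted p = 5.5e-05). H2-Ob, a chain of the inhibitor of H2-DM, fell by 0.60 on the log2 scale (adjusted p = 0.000502) and the costimulator Cd80 by 0.76 (adjusted p = 0.00107). Of the whole list of 19, 9 were higher and 2 lower, and 4 were lower without KO A or without fl C. Of 12 dendritic cell genes, 6 were higher and 4 lower. The summed level of the 18 list members in the table was 334.5 to 405.3 FPKM in KO and 568.6 to 645.4 FPKM in Gr_1. Most of this sum came from 1 member, which was called lower. Cd209a, a C-type lectin of monocyte-derived dendritic cells, measured 6.10, 6.51 and 6.68 FPKM in KO A, B and C and 1.42, 0.522 and 2.05 FPKM in Gr_1 A, B and C. The lectin Clec10a rose by 1.33 ± 0.134 (adjusted p = 7.99e-05). Mgl2, a lectin that is not on this list, rose by 3.14 ± 0.172 (adjusted p = 1.53e-05). Irf4, a transcription factor of dendritic and B cells, fell by 1.72 on the log2 scale (adjusted p = 5.45e-05). Of the conventional dendritic cell genes under the filter, Zbtb46 and Xcr1 were at or under a mean of 0.185 FPKM in both groups, and Clec9a had a mean of 0.495 FPKM in KO and 0.763 FPKM in Gr_1.

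MHC class I genes were nearly balanced, with 4 of 17 called in each direction, with 7 higher without KO A and 10 higher after rescaling without the 10 most abundant genes. H2-D1, a classical class I chain, measured 611, 572 and 615 FPKM in KO A, B and C and 943, 945 and 895 FPKM in Gr_1 A, B and C and fell by 0.63 on the log2 scale (adjusted p = 0.000922). H2-Q10 fell by 2.62 (adjusted p = 0.000291) and H2-Q7 rose by 1.20 ± 0.328 (adjusted p = 0.0125), or by 0.46 and not called with KO A as the only KO library (adjusted p = 0.199); the H2-Q genes are near copies and how reads divide among them is uncertain.

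**Figure D4:**
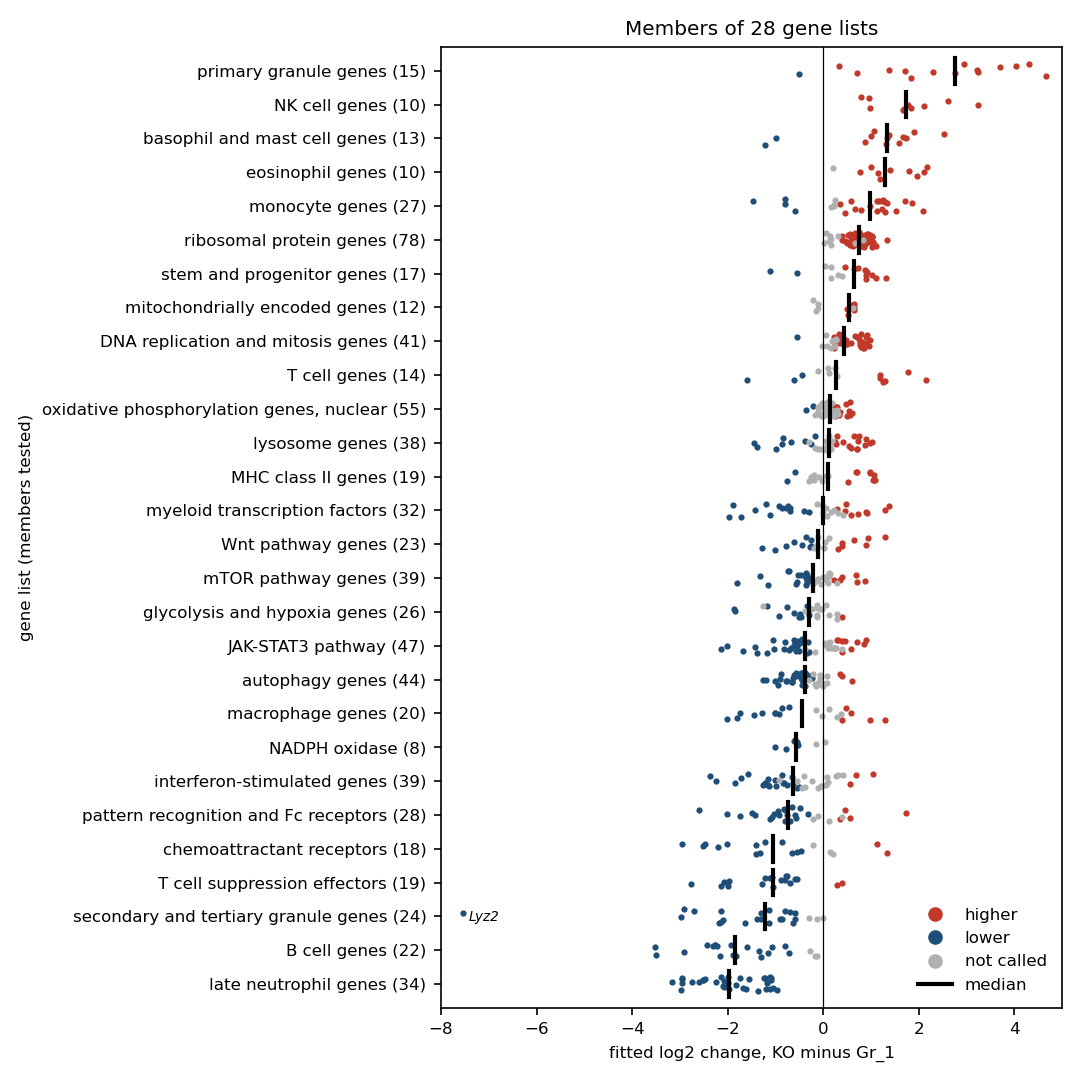
Fitted log2 change (KO minus Gr_1, x axis) of each tested member of 28 gene lists (y axis, number of members in brackets), coloured by call, with the list median as a black bar. Lists are ordered by median, from primary granule genes at 2.76 to late neutrophil genes at -1.98; the median of all genes tested is -0.001.

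Markers of other leukocytes also differed between the groups, and their part in the other results was not tested. Genes of eosinophils rose in 9 of 10 tested, 8 at least 2-fold. Prg2, the major basic protein of the eosinophil granule, measured 4133, 8447 and 6176 FPKM in KO A, B and C and 1202, 1552 and 1449.7 FPKM in Gr_1 A, B and C. Epx, the eosinophil peroxidase, measured 234, 520.3 and 371 FPKM in KO A, B and C and 66.9, 85.6 and 81.7 FPKM in Gr_1 A, B and C. Prg3 rose by 1.96 ± 0.288 (adjusted p = 0.000526). The summed level of the 11 eosinophil genes in the table was 7173 to 12427 FPKM in KO and 2384 to 2899.8 FPKM in Gr_1. Genes of basophils and mast cells were higher in 11 of 13 and lower in 2. Fcer1a, the IgE-binding chain, measured 5.75, 28.1 and 16.2 FPKM in KO A, B and C and 1.06, 1.55 and 2.38 FPKM in Gr_1 A, B and C. Its KO libraries ran from 5.75 to 28.1 FPKM, and with KO A as the only KO library it was not called (log2 change 1.37, adjusted p = 0.0537). Mcpt8, a basophil protease, measured 99.3, 130.4 and 118 FPKM in KO A, B and C and 25.8, 30.1 and 50.6 FPKM in Gr_1 A, B and C. Il6 rose by 1.89 ± 0.372 (adjusted p = 0.00247). With KO A as the only KO library neither was called, with a log2 change of 1.52 for Mcpt8 (adjusted p = 0.063) and 1.15 for Il6 (adjusted p = 0.0839), and 6 of the 13 genes were higher. Hdc, the histamine-forming enzyme, which is also on the late neutrophil list, fell by 1.22 on the log2 scale (adjusted p = 0.000529). The summed level was 471.2 to 584.0 FPKM in KO and 307.4 to 397.1 FPKM in Gr_1. The mast cell tryptase gene Tpsab1 was at 0 FPKM in all 6 libraries.

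Of 17 NK cell genes 10 passed the filter on low values, several of them only through the KO libraries, and these 10 were called higher, 7 at least 2-fold. With no filter 16 of the 17 were higher and 1 lower, Styk1, which had a mean of 0.269 FPKM in KO and 1.004 FPKM in Gr_1. KO B was the highest KO library in each of the 10. Nkg7, a granule membrane protein that is also on the primary granule list, measured 118, 226 and 163 FPKM in KO A, B and C and 13.3, 17.5 and 18.8 FPKM in Gr_1 A, B and C. Ccl5 measured 6.55, 23.1 and 16.5 FPKM in KO A, B and C and 1.23, 1.09 and 1.95 FPKM in Gr_1 A, B and C. Gzma, granzyme A, rose by 2.12 ± 0.235 (adjusted p = 0.000131), and Xcl1, lymphotactin, which is on none of the lists, by 2.30 ± 0.353 (adjusted p = 0.000658). The summed level of 17 NK genes was 149.7 to 300.5 FPKM in KO and 19.6 to 28.9 FPKM in Gr_1, most of it Nkg7. Of 24 T cell genes 14 passed the filter, some of them only through KO, with 6 called higher, all at least 2-fold, and 3 lower. With no filter 15 of the 24 were higher and 3 lower. Trbc1, a T cell receptor constant region, measured 5.17, 7.18 and 5.52 FPKM in KO A, B and C and 0.250, 0.735 and 0.750 FPKM in Gr_1 A, B and C. Trbc2 rose by 1.78 ± 0.222 (adjusted p = 0.000227). Cd3d, a chain of the same receptor complex, fell by 0.61 on the log2 scale (adjusted p = 0.00416) and Il7r, the IL-7 receptor chain, by 1.60 (adjusted p = 2.03e-05). The other CD3 genes, Cd3e and Cd3g, stayed under the filter, at means of 0.346 and 0.768 FPKM in KO and 0.033 and 0.136 FPKM in Gr_1. The summed level of 24 T cell genes was 37.2 to 53.6 FPKM in KO and 28.3 to 29.5 FPKM in Gr_1.

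B cell genes fell, in 19 of 22 tested, 17 of them at least 2-fold and none higher, with a median log2 change of -1.85 and the same counts without KO C. Relative to the Gr_1 mean, the list median was -1.602, -2.032 and -1.92 in KO A, B and C. In the wild-type fl libraries A, B and C it was -1.744, -1.665 and -1.389, so the lower level was not particular to KO. The surrogate light chain genes of pre-B cells led. Vpreb1 measured 4.53, 1.30 and 3.49 FPKM in KO A, B and C and 48.0, 49.7 and 34.5 FPKM in Gr_1 A, B and C. Igll1 measured 4.60, 0.616 and 2.76 FPKM in KO A, B and C and 42.2, 39.2 and 27.2 FPKM in Gr_1 A, B and C. Vpreb3, which escorts the chain, measured 12.9, 4.93 and 8.88 FPKM in KO A, B and C and 76.5, 65.5 and 66.1 FPKM in Gr_1 A, B and C. No KO library overlapped Gr_1 in these genes, which were picked among the largest falls, and KO B was the lowest in each. The summed level of the 22 genes was 545.3 to 663.2 FPKM in KO and 1279.6 to 1344 FPKM in Gr_1. Ighm and Igkc, the constant regions of the mu heavy chain and the kappa light chain, made up most of these sums. Ighm measured 167, 145 and 151 FPKM in KO A, B and C and 405, 359.9 and 387 FPKM in Gr_1 A, B and C and fell by 1.31 on the log2 scale (adjusted p = 1.88e-05). Igkc, at 219, 415 and 314 FPKM in KO A, B and C and 357, 383 and 377 FPKM in Gr_1 A, B and C, overlapped between the groups and was not called (adjusted p = 0.306); with KO A as the only KO library it was called lower (adjusted p = 0.0381). KO B was the lowest KO library in 20 of the 22 genes and the highest in Igkc and Jchain. Bach2 and Lef1, transcription factors of the early B and T lineages, fell with them, by 1.96 (adjusted p = 6.56e-05) and 1.29 (adjusted p = 8.97e-05) on the log2 scale. Lef1 was under 1 FPKM in every KO library and passed the filter only through Gr_1.

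Erythroid and platelet genes were called in few cases, with 2 of 19 higher and 5 lower; without KO C these were 1 and 3, the lower count was also 3 without KO A, and the higher count was also 1 without KO B or Gr_1 B. Of 12 erythroid genes, Gata1 was the only one called, with a rise of 1.01 ± 0.133 (adjusted p = 0.000295), and of 7 platelet genes 5 were lower. Ppbp, platelet basic protein, measured 7.02, 7.18 and 6.41 FPKM in KO A, B and C and 25.4, 16.8 and 44.0 FPKM in Gr_1 A, B and C. Pf4 fell by 0.998 on the log2 scale (adjusted p = 0.0274). It was lower also without KO A (-0.801), without KO C (-1.01) and without Gr_1 C (-0.698), but was then not called (adjusted p = 0.0865, 0.0626 and 0.0932). Stromal and epithelial markers were near the filter, with 5 of 16 tested, of which 3 were lower and 1 higher. With no filter on low values 6 were lower and 1 higher. The 3 lower members were under 1 FPKM in every KO library and passed the filter only through the Gr_1 libraries. The summed level of the 16 genes was 12.8 to 16.9 FPKM in KO and 14.3 to 18.7 FPKM in Gr_1. Col1a1, a collagen chain of fibroblasts and bone, measured 0.598, 0.301 and 0.518 FPKM in KO A, B and C and 1.80, 1.72 and 1.74 FPKM in Gr_1 A, B and C. Krt18, an epithelial keratin, was the member called higher, with 2.77, 5.57 and 4.22 FPKM in KO A, B and C and 1.95, 1.11 and 2.04 FPKM in Gr_1 A, B and C, a rise of 0.92 ± 0.212 (adjusted p = 0.00549) that was 0.498 and not called with KO A as the only KO library (adjusted p = 0.154). Among members under the filter, Krt19 was at 0 FPKM in both groups and Krt8 had a mean of 0.173 FPKM in KO and 0.00938 FPKM in Gr_1.

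Genes of stem and progenitor cells were called higher in 10 of 17 and lower in 2, with a median log2 change of 0.65. Gata2 and Kit are also on the basophil and mast cell list, and Flt3 is also on the dendritic cell list. Cd34, the progenitor surface antigen, measured 4.67, 7.21 and 5.64 FPKM in KO A, B and C and 1.69, 2.48 and 2.30 FPKM in Gr_1 A, B and C. Gata2 rose by 1.32 ± 0.245 (adjusted p = 0.00184) and Flt3 by 1.02 ± 0.164 (adjusted p = 0.00083), while Sox4 fell by 1.12 on the log2 scale (adjusted p = 0.000178). With KO A as the only KO library, 5 were called higher. Kit, the stem cell factor receptor, rose by 0.89 ± 0.116 (adjusted p = 0.000287). Among the other growth factor receptors, Csf3r, the G-CSF receptor, measured 235, 128 and 176 FPKM in KO A, B and C and 562, 583 and 527 FPKM in Gr_1 A, B and C and fell by 1.67 on the log2 scale (adjusted p = 0.000114), and Csf2ra and Csf2rb, the chains of the GM-CSF receptor, fell by 0.67 (adjusted p = 0.000815) and 0.43 (adjusted p = 0.00136).

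Genes of the JAK-STAT3 pathway were lower in 26 of 47 tested and higher in 10, with a median log2 change of -0.38. Relative to the Gr_1 mean, the list median was -0.277, -0.438 and -0.366 in KO A, B and C. In the wild-type fl libraries A, B and C it was -0.348, -0.335 and -0.393, so the lower level was not particular to KO. The higher count was 6 without KO B, without KO C, without Gr_1 A, without Gr_1 B or with no filter on low values, and the lower count was 25 without KO C. Among receptors 4 of 11 were higher and 4 lower. Ifngr1, the interferon gamma receptor chain, rose by 0.70 ± 0.0851 (adjusted p = 0.000201) and Il11ra1 by 0.86 ± 0.165 (adjusted p = 0.00218). None of the 7 STAT genes was higher and 5 were lower. Stat3 measured 30.8, 26.6 and 28.9 FPKM in KO A, B and C and 44.5, 42.8 and 45.2 FPKM in Gr_1 A, B and C and fell by 0.61 on the log2 scale (adjusted p = 0.000235). Feedback inhibitors were lower in 7 of 13 and higher in 3. Socs3, the gene of the genotype label, is itself on the pathway list and counts among its 26 lower genes. STAT3 target genes were lower in 9 of 12, 6 of them at least 2-fold, and higher in 2. Il1rn, the IL-1 receptor antagonist, measured 9.99, 3.57 and 6.65 FPKM in KO A, B and C and 31.9, 31.5 and 29.9 FPKM in Gr_1 A, B and C. Myc went the other way, with 12.2, 25.4 and 18.8 FPKM in KO A, B and C and 9.25, 9.22 and 9.01 FPKM in Gr_1 A, B and C, and rose by 0.91 ± 0.222 (adjusted p = 0.00745); with KO A as the only KO library the change was 0.38 and not called (adjusted p = 0.148).

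Genes with which myeloid cells suppress T cells were lower in 17 of 19 tested, 10 of them at least 2-fold, with a median log2 change of -1.05. The list includes S100a8 and S100a9. Relative to the Gr_1 mean, the list median was -0.79, -1.23 and -1.08 in KO A, B and C. In the wild-type fl libraries A, B and C it was -0.99, -1.05 and -1.12, so the lower level was not particular to KO. Arg2, the mitochondrial arginase, measured 9.06, 2.77 and 5.34 FPKM in KO A, B and C and 38.1, 40.4 and 46.0 FPKM in Gr_1 A, B and C. Il1b, interleukin 1 beta, measured 181, 40.0 and 108 FPKM in KO A, B and C and 381, 397 and 461 FPKM in Gr_1 A, B and C. The KO libraries differed widely in Il1b, with KO A the highest, and all 3 were below every Gr_1 library. Nt5e, the CD73 ectoenzyme that makes adenosine, fell by 2.07 on the log2 scale (adjusted p = 4.03e-05). Arg1 and Nos2, the other arginine-using enzymes of suppressor cells, were under the filter at 0.103 to 0.144 and 0.0104 to 0.0342 FPKM in KO and at 0.112 to 0.124 and 0.0142 to 0.0566 FPKM in Gr_1, so no difference was detectable at this depth. Cd274, which encodes PD-L1, measured 3.96, 4.66 and 4.09 FPKM in KO A, B and C and 2.79, 2.48 and 3.79 FPKM in Gr_1 A, B and C and Tgfb1 54.3, 48.9 and 53.0 FPKM in KO A, B and C and 42.8, 42.0 and 41.6 FPKM in Gr_1 A, B and C. Both were called higher (adjusted p = 0.0364 and 0.0393), and neither call held without KO C (adjusted p = 0.0715 and 0.102) or without KO A (0.0503 and 0.0968). Cd274 also lost its call without KO B, Gr_1 A or Gr_1 B, and Tgfb1 without any of the Gr_1 libraries. Mir155hg, the host transcript of miR-155, lay between 0.0384 and 0.436 FPKM in the 6 libraries with overlapping groups.

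Subunits of the NADPH oxidase, which makes superoxide in the phagosome, were lower in 6 of 8 and higher in none. Ncf1 fell by 0.77 on the log2 scale (adjusted p = 0.000234) and Rac2 by 0.61 (adjusted p = 0.00126). The scaling touched this list: 1 member was called higher after quantile normalization and after rescaling without the 10 most abundant genes.

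Sensors of microbes fell in 20 of 28 and rose in 4. Of 15 Toll-like and NOD receptors, 12 were lower and 1 higher, and Tlr5, the flagellin receptor, measured 1.52, 0.653 and 1.18 FPKM in KO A, B and C and 7.59, 8.21 and 6.67 FPKM in Gr_1 A, B and C. Clec4d and Clec4e, paired lectins for mycobacterial lipid, fell by 2.59 (adjusted p = 0.000127) and 1.73 (adjusted p = 6.15e-05) on the log2 scale. Clec12a, an inhibitory lectin, and Fcgr2b, the inhibitory Fc receptor, rose by 0.57 ± 0.0659 (adjusted p = 0.00016) and 0.46 ± 0.0688 (adjusted p = 0.00055).

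Interferon-stimulated genes were lower in 21 of 39, 12 of them at least 2-fold, and higher in 3. Without KO C, 18 were lower. Relative to the Gr_1 mean the list median was -0.24, -1.06 and -0.59 in KO A, B and C, and KO A was the highest KO library in 38 of the 39. Slfn4 measured 128, 37.1 and 81.0 FPKM in KO A, B and C and 394, 368 and 387 FPKM in Gr_1 A, B and C. Oas3, an antiviral oligoadenylate synthetase, measured 17.3, 5.04 and 12.2 FPKM in KO A, B and C and 47.4, 34.3 and 38.4 FPKM in Gr_1 A, B and C. Slfn1 fell by 2.24 on the log2 scale (adjusted p = 0.00031). Ifi47, an interferon-induced GTPase, rose by 0.68 ± 0.115 (adjusted p = 0.0011) and Bst2, tetherin, by 0.56 ± 0.118 (adjusted p = 0.00362). The higher count was 5 without fl C.

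Transcription factors of the myeloid lineage were called lower in 14 of 32 and higher in 9. Cebpb, named in the series title as C/EBPβ, measured 108, 74.9 and 136 FPKM in KO A, B and C and 207, 248 and 217 FPKM in Gr_1 A, B and C. It fell by 1.10 on the log2 scale (adjusted p = 0.00287), and without each library in turn the change ran from -1.30 (without KO C) to -0.88 (without KO B). Cebpa rose by 0.93 ± 0.164 (adjusted p = 0.00141). Gfi1, a repressor needed for granulocyte differentiation and also on the primary granule list, measured 31.2, 46.0 and 39.2 FPKM in KO A, B and C and 13.8, 14.1 and 14.7 FPKM in Gr_1 A, B and C. Klf4, a monocyte factor, measured 22.9, 19.5 and 21.8 FPKM in KO A, B and C and 8.70, 6.32 and 9.73 FPKM in Gr_1 A, B and C. Klf2 fell by 1.90 on the log2 scale (adjusted p = 5.58e-05). The list median was -0.01 and turned to 0.09 and 0.16 under the other scalings.

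Autophagy genes, the process named in the series title, were lower in 28 of 44 and higher in 3, with a median log2 change of -0.38 and 3 falls of at least 2-fold. Without KO C, 28 were lower and 1 higher; the higher count was also 1 without KO B, Gr_1 A or Gr_1 B, and 6 after rescaling without the 10 most abundant genes. Initiation genes were lower in 4 of 5. Ulk1, the kinase that starts autophagosome formation, measured 8.52, 7.38 and 8.06 FPKM in KO A, B and C and 19.1, 21.3 and 21.6 FPKM in Gr_1 A, B and C. Nucleation genes were lower in 2 of 7 and higher in 1. Becn1, a subunit of the lipid kinase complex, measured 17.1, 15.3 and 15.3 FPKM in KO A, B and C and 20.1, 20.6 and 19.0 FPKM in Gr_1 A, B and C, and its fall of 0.31 on the log2 scale (adjusted p = 0.00454) was not called after rescaling without the 10 most abundant genes (adjusted p = 0.176) or after quantile normalization (0.0505). Elongation genes were lower in 14 of 21 and higher in 2. Map1lc3b, the LC3B protein that coats the membrane, measured 21.4, 17.1 and 19.7 FPKM in KO A, B and C and 44.9, 45.7 and 46.0 FPKM in Gr_1 A, B and C. Atg7, which activates it, measured 14.5, 10.7 and 12.4 FPKM in KO A, B and C and 25.7, 26.7 and 26.1 FPKM in Gr_1 A, B and C. For Ulk1, Map1lc3b and Atg7 every KO library was under every Gr_1 library, with log2 changes of -1.27 ± 0.0738, -1.19 ± 0.0828 and -1.02 ± 0.0956 and adjusted p of 1.64e-05, 2.82e-05 and 6.17e-05. Cargo receptors were lower in 6 of 7. Sqstm1, the p62 receptor, measured 53.3, 54.7 and 53.0 FPKM in KO A, B and C and 67.7, 68.9 and 74.1 FPKM in Gr_1 A, B and C and fell by 0.38 on the log2 scale (adjusted p = 0.00148; 0.056 after quantile normalization). The fl libraries had nearly the same list median as KO, between -0.41 and -0.34 relative to the Gr_1 mean. Transcript levels do not measure autophagic flux.

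Lysosome genes, whose products complete autophagy, were higher in 15 of 38 and lower in 9. Cathepsins went both ways. Ctss measured 183, 118 and 149 FPKM in KO A, B and C and 77.6, 59.1 and 89.3 FPKM in Gr_1 A, B and C and rose by 0.98 ± 0.179 (adjusted p = 0.00161), Ctsc, which activates granule serine proteases, rose by 1.03 ± 0.185 (adjusted p = 0.00153), and Ctse fell by 1.44 on the log2 scale (adjusted p = 4.27e-05). Tfe3, a transcription factor of lysosome genes, fell by 0.99 (adjusted p = 0.000316).

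Wnt pathway genes showed no common direction, with 7 of 23 called higher and 9 lower; the lower count was 5 without KO B, Gr_1 A or Gr_1 B and 6 without KO C. Receptors were higher in 3 of 4, and Lrp5, a Wnt co-receptor, measured 7.28, 9.12 and 8.32 FPKM in KO A, B and C and 3.75, 3.69 and 3.88 FPKM in Gr_1 A, B and C with a rise of 0.95 ± 0.0793 (adjusted p = 4.19e-05). Transducers were lower in 5 of 9. Ctnnb1, β-catenin, measured 34.2, 34.5 and 33.0 FPKM in KO A, B and C and 36.7, 36.9 and 37.6 FPKM in Gr_1 A, B and C. Every KO library was below every Gr_1 library, but the log2 change of -0.12 ± 0.0505 was not called (adjusted p = 0.0628) and turned to 0.061 after rescaling and 0.083 after quantile normalization. Tcf7, which is also on the T cell list, rose by 1.30 ± 0.223 (adjusted p = 0.00117) and passed the filter only through KO. Lgr5 measured 0.118, 0.0448 and 0.0985 FPKM in KO A, B and C and 1.30, 1.23 and 1.04 FPKM in Gr_1 A, B and C. It had 56 fragments in the KO libraries and 614 in Gr_1, and passed the filter only through Gr_1. Lgr5 fell by 1.01 on the log2 scale (adjusted p = 0.0001).

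Genes of the mTOR pathway were lower in 19 of 39 and higher in 6, or 8 and 14 after rescaling without the 10 most abundant genes. Mtor itself measured 5.11, 5.08 and 5.23 FPKM in KO A, B and C and 6.60, 6.42 and 6.39 FPKM in Gr_1 A, B and C and fell by 0.28 on the log2 scale (adjusted p = 0.0145), a call lost under that rescaling (adjusted p = 0.157). Sesn2, a stress-induced inhibitor of the pathway, measured 7.99, 4.21 and 6.01 FPKM in KO A, B and C and 22.5, 23.2 and 23.1 FPKM in Gr_1 A, B and C. Rps6, the ribosomal protein that S6 kinase phosphorylates, rose by 0.88 ± 0.136 (adjusted p = 0.000675).

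Ribosomal protein genes were called higher in 69 of 78 and lower in none, with a median log2 change of 0.74. The count was 67 without KO C and 41 with KO A as the only KO library, and KO A was the lowest KO library in 75 of the 78. The number of at least 2-fold was 9, and it was 21 without KO A, 1 without KO B and 3 without Gr_1 C. Rps18 measured 214, 303 and 262 FPKM in KO A, B and C and 131, 127 and 113 FPKM in Gr_1 A, B and C. Rps12 rose by 1.11 ± 0.231 (adjusted p = 0.00334); with KO A as the only KO library the change was 0.57 and not called (adjusted p = 0.0943). Ribosomal protein genes have many near-identical pseudogene copies, so single values are uncertain.

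Genes of DNA replication were higher in 18 of 19 and lower in 1, and genes of mitosis were higher in 13 of 22 and lower in none. On the log2(FPKM + 1) scale no rise reached a log2 change of 1. With 0.1 in place of the 1 added to FPKM, 3 called rises did. Cdt1 and Cdc6 license replication origins. Cdt1 measured 26.8, 30.9 and 31.0 FPKM in KO A, B and C and 15.4, 15.1 and 13.4 FPKM in Gr_1 A, B and C. Cdc6 rose by 0.93 ± 0.0803 (adjusted p = 4.56e-05) and Mybl2, a cell cycle transcription factor, by 0.99 ± 0.115 (adjusted p = 0.000162). The member that fell was E2f2, by 0.54 on the log2 scale (adjusted p = 0.00141).

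Genes of energy metabolism moved little beside the granule lists. Nuclear oxidative phosphorylation genes were higher in 15 of 55 and lower in 2, and 38 were not called; the lower count was 1 without KO C or Gr_1 A, and the higher count was 8 without KO C or Gr_1 C, 25 without fl C, and 41 and 36 under the other scalings. Mitochondrially encoded genes were higher in 7 of 12, among them mt-Nd1 with 629, 662 and 642 FPKM in KO A, B and C and 404, 438 and 399 FPKM in Gr_1 A, B and C. Glycolysis and hypoxia genes were lower in 12 of 26 and higher in 1, or in 2 without KO A. Slc2a3, the neuronal-type glucose transporter that neutrophils also use, measured 54.9, 33.9 and 44.4 FPKM in KO A, B and C and 165, 166 and 152 FPKM in Gr_1 A, B and C. Slc16a3, which exports lactate, fell by 1.85 on the log2 scale (adjusted p = 7.2e-05) and Pfkfb4 by 1.17 (adjusted p = 0.000159).

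Cytokine genes were lower in 6 of 9 and higher in 1, and chemokine genes 4 and 4 of 10. Ccl9, a chemokine of myeloid cells, measured 41.3, 44.8 and 42.5 FPKM in KO A, B and C and 13.7, 12.0 and 21.3 FPKM in Gr_1 A, B and C and rose by 1.44 ± 0.17 (adjusted p = 0.000179). Immediate early and heat shock genes, which respond to handling as well as to signals, were lower in 12 of 25 and higher in 4; the higher count was 2 without KO B or KO C and 1 without Gr_1 A or Gr_1 B. Btg2 measured 100.3, 98.0 and 96.8 FPKM in KO A, B and C and 217, 222 and 243 FPKM in Gr_1 A, B and C. Junb fell by 1.03 on the log2 scale (adjusted p = 3.39e-05) and Fosl2 by 1.39 (adjusted p = 4.33e-05). Genes of NF-kappaB signalling were lower in 7 of 16 and higher in 2, with Bcl3 falling by 1.06 (adjusted p = 2.99e-05). Among 21 death and survival genes, 9 were lower and 4 higher. Mcl1, the survival factor that neutrophils depend on, measured 198, 141 and 176 FPKM in KO A, B and C and 373, 379 and 398 FPKM in Gr_1 A, B and C, and Fas fell by 1.30 on the log2 scale (adjusted p = 0.000349). Bcl2 rose by 0.70 ± 0.111 (adjusted p = 0.000816).

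The order of the KO libraries recurred across lists. Relative to the Gr_1 mean, the median of the primary granule genes was 2.35, 3.17 and 2.76 in KO A, B and C, that of the late neutrophil genes -1.45, -2.35 and -1.90, and that of the ribosomal protein genes 0.54, 0.96 and 0.76. KO B was thus the farthest from Gr_1 and KO A the nearest in these lists. Monocyte genes ran the other way, at 1.23, 0.736 and 0.998. The fl libraries lay near KO for primary granule genes and beyond KO for late neutrophil and monocyte genes. For T cell suppression, JAK-STAT3, B cell, eosinophil, NK cell and ribosomal protein genes they lay on the same side of Gr_1 as KO. For macrophage, T cell and stem and progenitor genes they lay on the other side. What the order among the KO libraries rests on was not tested.

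**Figure D5:**
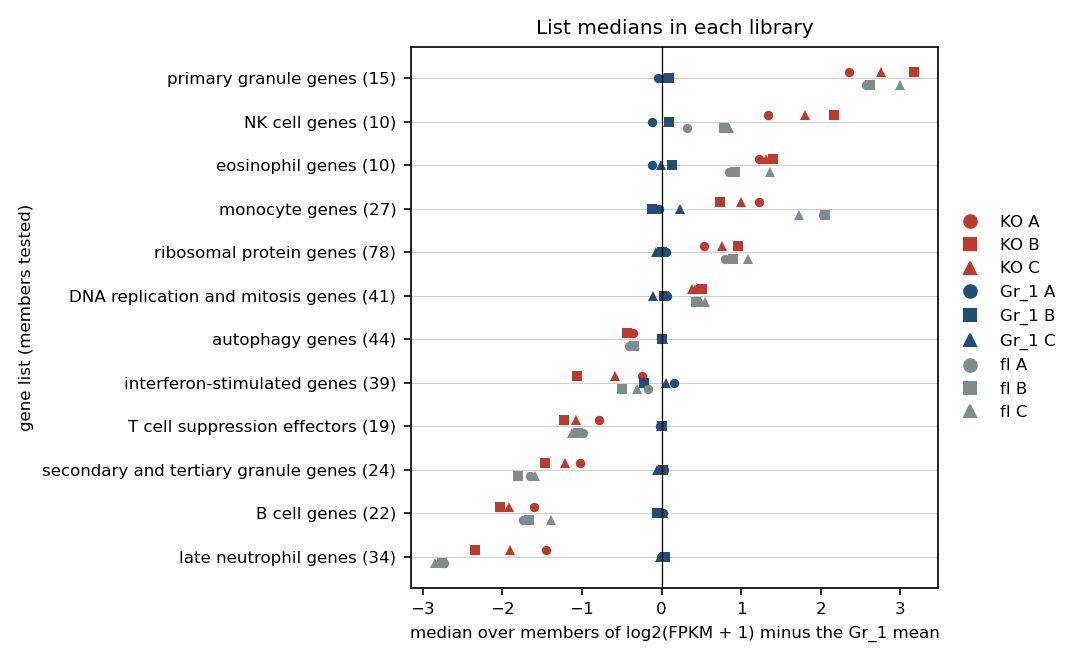
Median over the members of 12 gene lists (y axis) of log2(FPKM + 1) minus the mean of the 3 Gr_1 libraries (x axis), with 1 symbol per library and circles, squares and triangles for A, B and C. In the primary granule list the KO libraries sit at 2.35, 3.17 and 2.76 and in the late neutrophil list at -1.45, -2.35 and -1.90, with KO C between the other KO libraries.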

How the data were processed

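The values in the deposited table are FPKM computed by the authors, with 54532 Ensembl genes as rows and a column for each library, per the file headers. In the submitters' processing notes the tools featureCounts 1.5.0-p3 and DESeq2 1.16.1 appear beside the builds mm10 and GRCm38, without roles. No aligner is named there, and the one used is unknown here. With GENCODE M21 exon lengths (54495 IDs matched, 37 did not), 97.2% to 97.5% of values under 1000 fragments turned back into whole fragments within 0.02. The implied library scaling equalled median-of-ratios factors to 0.00022 (log2) and differed from total fragments by as much as 0.222, so the values are not relative to each library's total.

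The fit used limma 3.58.1 in R 4.3.3 with its trend option on log2(FPKM + 1), for genes that had 1 FPKM in 3 or more of the 6 libraries. It held all 9 libraries and a term per group, with 6 residual degrees of freedom. Calls are two-sided, at a Benjamini-Hochberg adjusted p under 0.05 over the 11885 genes. Log2 changes are KO minus Gr_1 on the log2(FPKM + 1) scale, which understates the change of low genes, and carry the fit's standard errors. The fit was also run on simulated data with the same spread for every library. Here the KO libraries spread more, so that run does not cover their spread. A floor of 3 fragments, for counting error only, was 0.138 to 0.187 FPKM for a gene with 1 kilobase of exon, and is lower for longer genes.

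Genes named are the 15 largest rises and 15 largest falls among called genes that have a plain symbol, ranges apart and 1 FPKM or more in the group with the higher mean, up to 3 called members per direction of each list with the largest change (the 2 most abundant where none was called), and 23 genes fixed by name, Socs3 among them. Some genes that this rule names are not reported here. Zbtb46, Xcr1, Clec9a, Cd3e, Cd3g, Tpsab1, Krt8, Krt19, Styk1, Ighm, Igkc and Jchain were added after their values were seen. The members and lists were chosen with earlier results of these data known, so list counts are descriptions and no list was tested as a set. Tables and figures came from Python 3.11.15 (pandas 2.3.3, numpy 2.4.6, matplotlib 3.10.9, scipy 1.17.1).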

Additional observations from a re-analysis of the deposited data

How the results depend on the processing

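With KO A as the only KO library, 3340 genes were called, 1304 higher and 2036 lower, 565 fell at least 2-fold, and 39.0% of the calls were higher. Rises of at least 2-fold, 280 in the reported fit, numbered 519 and 566 with pseudocounts of 0.1 and 0.01, 557 by voom on the recovered fragments, 481 after rescaling without the 10 most abundant genes and 174 with a filter of 5 FPKM, which tests fewer genes and called 1964 higher. The share of calls that were higher, 47.4% (Wilson 95% interval 46.2% to 48.6%), was 44.3% without a filter, 42.0% with a filter of 5 FPKM, 55.2% after quantile normalization and 64.6% after rescaling; the cause was not tested. Leaving out 1 library at a time gave 5649 to 7513 calls, 2579 to 3626 higher, 3070 to 3887 lower, a share of 45.5% to 48.3%, and a Socs3 change of -2.10 to -1.90. The change of Ctnnb1, not called, turned to 0.083 after quantile normalization and 0.061 after rescaling. That of Jchain, not called, turned to 0.021 and 0.054 under these and lay between -0.354 (without KO B) and 0.078 (without KO A) without each library in turn. Of 158 named genes tested, 24 changed call or sign under at least 1 setting. Letters A, B and C did not pair the groups: same-letter deviations correlated at -0.017, -0.036 and -0.045, and no library correlated best with its own letter. With the letter as a replicate block, 6422 genes were called, 2995 higher and 3427 lower, and Socs3 changed by -2.01 (adjusted p = 0.000134); among named genes the block ended the call of Cd274 (adjusted p = 0.0692). With KO A as the only KO library, a fit with fewer samples, 18 named genes lost their call: Becn1, Cd274, Cd80, Cebpa, Csf2rb, Fcer1a, Gata2, H2-Q7, Hk3, Il6, Krt18, Ly6c2, Mcpt8, Mtor, Myc, Pf4, Rps12 and Tgfb1, and Igkc gained one. In that fit 16 JAK-STAT3 genes were lower and 5 higher, 8 mTOR pathway genes lower and 3 higher, 7 interferon-stimulated, 5 lysosome and 4 Wnt pathway genes lower, and 4 nuclear oxidative phosphorylation, 2 mitochondrially encoded and 1 MHC class I genes higher; no immediate early, autophagy or T cell suppression gene was higher. With no filter on low values, 1 autophagy, 1 T cell suppression and 2 immediate early genes were higher. Depth limits genes near the floor, such as Arg1, Nos2 and Mir155hg.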
